A study of Arabidopsis thaliana with 42 samples.

Results

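The 40 genes described here were the strong daily cyclers of wild-type Arabidopsis thaliana whose level was highest at ZT6, 6 h after lights on. They were chosen from 33602 loci by their wild-type long-day values. A locus was kept where the mean of the 3 wild-type libraries, in CPM (the count scaled to the same total in every library), reached at least 20 CPM at its highest time, where the highest mean plus 0.5 was at least 8 times the lowest mean plus 0.5, and where the highest mean fell at ZT6. The same thresholds gave 101 genes highest at ZT2 and 81 highest at ZT10. The wild-type long-day values of the members are therefore a description of the choice and were not tested.

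The plants were seedlings of the Col-0 accession grown on MS medium at 22 °C, either wild type or the link1link2 double mutant, and no other genotype or agent was used. LNK1 and LNK2, spelled LINK1 and LINK2 in the series title, are nuclear coactivators that bind MYB-like clock proteins and promote the daytime expression of clock genes. In long days (16 h light and 8 h dark) 9-day-old seedlings of each genotype were harvested every 4 h from ZT2 to ZT22, giving 36 libraries, 3 for each time in each genotype. In continuous light 3 libraries of each genotype were taken from seedlings that the sample labels give as 9 days old and the design text as older, without a time of day. No source says whether the libraries of a group were grown separately, and every p-value therefore rests on a spread between libraries that may be technical.

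Library totals ran from 7259559 to 13576565 counts in long days and from 11448934 to 14911921 in continuous light. LNK2 stood at 628 to 700.1 CPM in the wild type at ZT2 and at 10.2 to 13.1 CPM in link1link2, and LNK1 at 225 to 235 against 68.3 to 72.2 CPM. Of 9 leaf and guard-cell markers 8 averaged over 1 CPM in long days, as did 11 of 15 root markers and 1 of 15 seed markers, in whole seedlings as labelled. Chloroplast-encoded genes took over 2% of the counts in 4 long-day libraries (wild type ZT10 replicate B, link1link2 ZT2 replicate C, and link1link2 ZT22 replicates A and C), and counts are given without them where that mattered.

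Light and the circadian clock together set the daily rhythm of many plant genes. The clock is a loop of repressors that follow each other through the day: the MYB-like proteins CCA1 and LHY at dawn, the pseudo-response regulators PRR9, PRR7 and PRR5 from morning to dusk, and TOC1 and the evening complex at night. Genes for the chlorophyll-binding antenna proteins of the thylakoid are a classic output, rising in the morning in anticipation of light. Evening elements and related sites in promoters are bound by CCA1, LHY and their relatives, and G-boxes by light-signalling bHLH and bZIP proteins.

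The 250 bases before the annotated start are shown for 6 members that carry the contrasts below: both clock repressors, a MYB-like gene with a near copy, the member with the lowest link1link2 level at ZT6 relative to the wild type, and 2 antenna genes that differed in their morning profile. Sequences are from RefSeq (TAIR10.1) and are written in the gene's own direction. Capitals mark every match to the evening element AAATATCT, the CCA1-binding site AAAAATCT, the G-box CACGTG, the GATA motif GATAAG or the morning element CCACAC, on either strand. No match overlapped another in these 6 windows.
PRR9 upstream, chr2:19232357-19232606, plus strand: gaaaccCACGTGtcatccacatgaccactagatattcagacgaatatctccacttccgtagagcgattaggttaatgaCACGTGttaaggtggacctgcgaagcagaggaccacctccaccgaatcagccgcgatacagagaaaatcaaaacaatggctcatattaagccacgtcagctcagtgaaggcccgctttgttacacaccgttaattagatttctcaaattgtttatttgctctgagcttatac
PRR7 upstream, chr5:642031-642280, minus strand: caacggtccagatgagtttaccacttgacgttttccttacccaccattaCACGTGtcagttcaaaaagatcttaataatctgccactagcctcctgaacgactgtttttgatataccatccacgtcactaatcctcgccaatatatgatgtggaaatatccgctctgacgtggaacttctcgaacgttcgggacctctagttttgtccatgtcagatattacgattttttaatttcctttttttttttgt
EPR1 upstream, chr1:6308244-6308493, minus strand: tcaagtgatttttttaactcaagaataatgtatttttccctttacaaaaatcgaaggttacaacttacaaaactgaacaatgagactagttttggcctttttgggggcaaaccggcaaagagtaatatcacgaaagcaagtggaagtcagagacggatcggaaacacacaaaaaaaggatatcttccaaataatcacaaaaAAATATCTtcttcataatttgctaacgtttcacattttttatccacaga
MYBL2 upstream, chr1:26796533-26796782, minus strand: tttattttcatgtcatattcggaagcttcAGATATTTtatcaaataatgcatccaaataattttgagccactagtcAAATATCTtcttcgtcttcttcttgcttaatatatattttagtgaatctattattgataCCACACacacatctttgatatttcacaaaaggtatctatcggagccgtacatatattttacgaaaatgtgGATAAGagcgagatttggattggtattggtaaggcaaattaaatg
LHCB2.1 upstream, chr2:1824481-1824730, minus strand: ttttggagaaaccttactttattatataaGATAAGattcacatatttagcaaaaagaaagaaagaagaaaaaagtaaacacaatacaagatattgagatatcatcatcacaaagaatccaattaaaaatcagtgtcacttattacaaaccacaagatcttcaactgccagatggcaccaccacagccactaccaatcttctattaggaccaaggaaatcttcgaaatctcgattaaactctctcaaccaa
LHCB2.3 upstream, chr3:10255656-10255905, plus strand: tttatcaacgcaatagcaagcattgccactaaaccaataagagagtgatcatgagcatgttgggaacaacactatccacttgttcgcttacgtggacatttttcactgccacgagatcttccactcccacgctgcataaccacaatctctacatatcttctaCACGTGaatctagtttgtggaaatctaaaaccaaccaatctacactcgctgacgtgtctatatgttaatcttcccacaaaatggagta
The mature microRNA of the MIR167d precursor is added because only its primary transcript was counted, with the seed, bases 2 to 8, in capitals.
miR167d mature, chr1:11137556-11137577, plus strand: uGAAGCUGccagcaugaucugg

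Over all 40 members, the evening element occurred in the window of 8 (20% against 4.52% of 32834 loci with a window), namely MYBL2, RPP4, AT4G16880, RAB18, EPR1, CYP71B26, AT5G59130 and FBA5. The share was 3% among genes highest at ZT2 and 32.1% among genes highest at ZT10. The CCA1-binding site occurred in 6 members (15% against 6.27%), the GATA motif in 10 (25% against 12.6%), the G-box in 5 (12.5% against 5.83%) and the morning element in 4 (10% against 6.14%). None of the 11 antenna members held an evening element in this window, and CAB2, LHB1B1 and LHCA4 held a CCA1-binding site. These matches are letters in a window and no binding was measured.

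In the wild type the ZT6 libraries of 32 members lay above every other wild-type library. For PRR9, AT1G73480 and AT5G18030 they overlapped ZT2, for FBA5, RPP4, AT4G16870 and AT5G59130 they overlapped ZT10, and for RAB18 they overlapped both. The lowest mean fell at ZT18 for 24 members, at ZT14 for 7, at ZT22 for 6 and at ZT2 for 3 (RPP4, AT4G16870 and MIR167d). The median ratio of highest to lowest mean, with 0.5 added to each, was 19.1 in the wild type and 6.81 in link1link2, and it was lower in link1link2 for 35 members. The highest link1link2 mean lay below the highest wild-type mean for 36 members, at a median of 64.2% of it, and the lowest link1link2 mean lay above the lowest wild-type mean for 30. The rule chose members for a high wild-type maximum and ratio, which itself favours smaller values in link1link2. These counts were not tested, have no share over all genes beside them and are given without a reading. Members just inside the ratio threshold were ATCTH (8.08), RPP4 (8.39), FBA5 (8.64) and EXPA8 (8.79), and just outside it lay MAKR6 (7.83), LHCB6 (7.78), LHCA3 (7.70) and AT1G53870 (7.22). At the CPM threshold AT5G54585 (22.2), AT5G18030 (22.3), AT3G55240 (23.5) and MIR167d (24.7) were inside, and ICS2 (19.8), AT2G46670 (19.8), SAUR20 (17.46) and PRE1 (16.9) were outside.

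**Figure D1:**
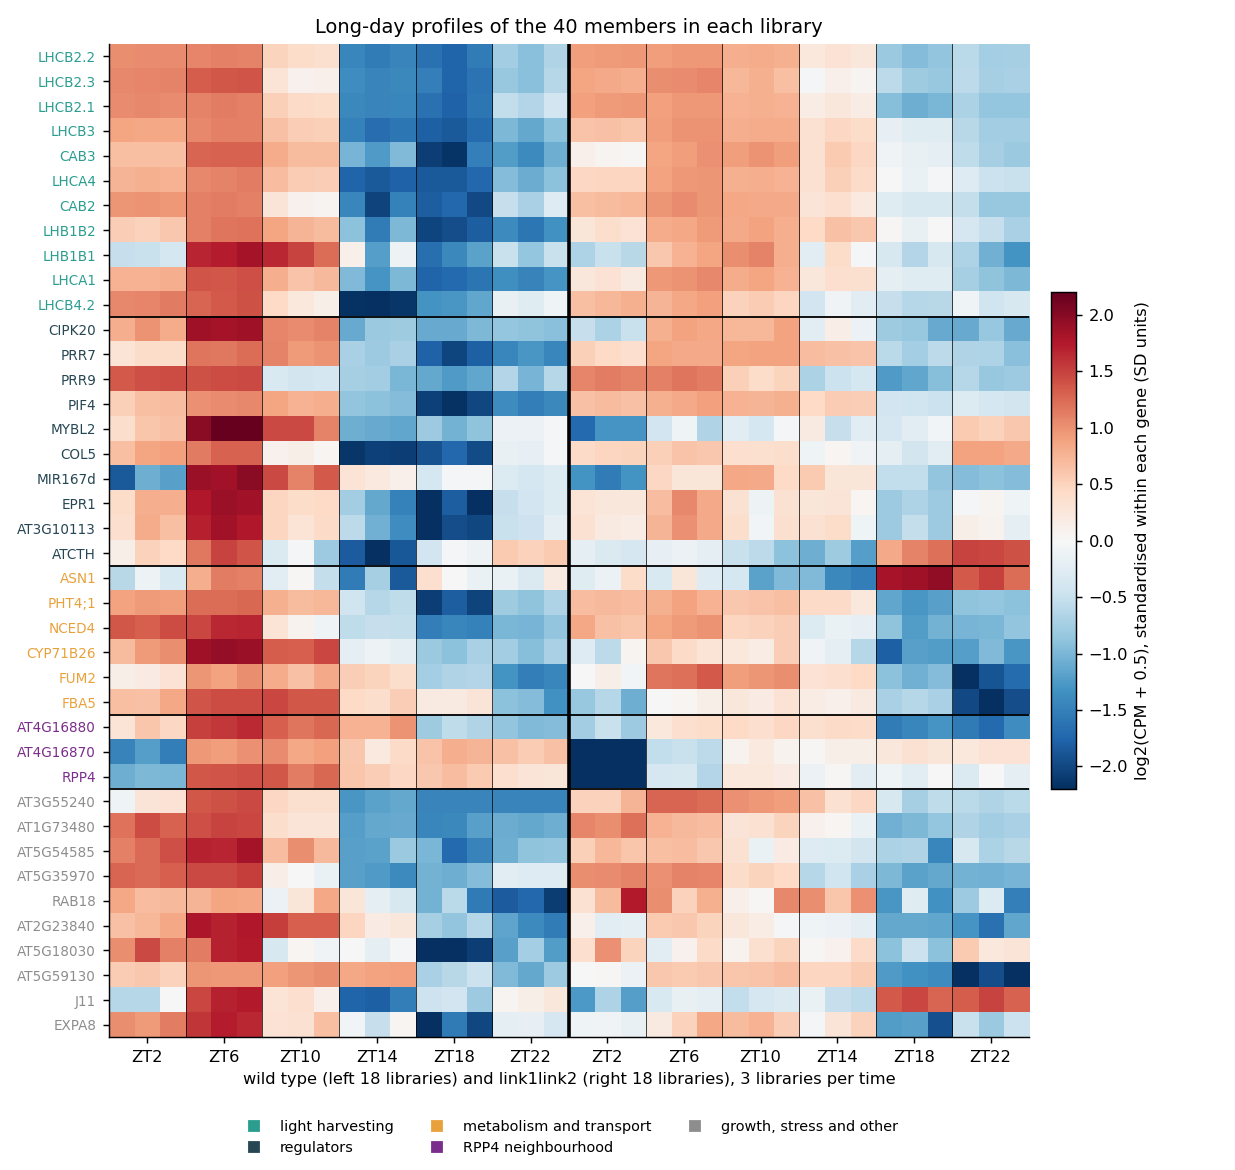
Level of each of the 40 members (rows, coloured by role) in each of the 36 long-day libraries (columns, 3 per time, wild type left and link1link2 right), as log2(CPM + 0.5) standardised within the gene, with colours capped at 2.2 SD. The wild-type side is red at ZT6 in every row by the choice of the genes, and the link1link2 side is paler at ZT14 and ZT18 for the light-harvesting rows and red at ZT18 and ZT22 for ASN1, J11 and ATCTH.

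Light-harvesting genes made up the biggest group, with 11 members. They encode antenna proteins of photosystem I (LHCA1, LHCA4), the main trimeric antenna of photosystem II (CAB2, CAB3, LHB1B1, LHB1B2, LHCB2.1, LHCB2.2, LHCB2.3, LHCB3) and a minor antenna of photosystem II (LHCB4.2). Of 25 matched genes of the list, 23 passed 20 CPM in the wild type, 17 of these were highest at ZT6, and the genes left out mostly had a smaller ratio, such as LHCB5 (5.04), CAB1 (3.51) and LHCA2 (2.75). The 11 members together took 7.99 to 8.46% of the wild-type counts at ZT6 and 0.366 to 0.447% at ZT18. In link1link2 they took 5.82 to 6.36% at ZT6 and 1.65 to 1.86% at ZT18, lower than the wild type at ZT6 and higher at ZT18 in all libraries. In whole seedlings, fewer cells of a type and less RNA per cell cannot be told apart.

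LHCB2.2 had the largest wild-type ratio of the antenna genes (163). It stood at 5108, 5426 and 5389.5 CPM in the 3 wild-type libraries at ZT6 and at 46.4, 39.01 and 45.6 CPM at ZT14. In link1link2 it stood at 3842, 4124 and 4101 CPM at ZT6 and still at 1082, 1241 and 1096 CPM at ZT14. The genotypes did not overlap at either time, with link1link2 lower at ZT6 and higher at ZT14, before lights off. LHCB2.1, 92.2% identical to LHCB2.2 over 1131 aligned bases, followed the same course, and its link1link2 libraries stood at 4040.5, 4344 and 4479 CPM at ZT2 and at 4043, 4375 and 4364 CPM at ZT6. Neither rose from ZT2 to ZT6 in link1link2 by the test (log2 change 0.04 ± 0.11, SE, adjusted p = 0.798 for LHCB2.1, and 0.06 ± 0.10, adjusted p = 0.699 for LHCB2.2). LHCB2.3 did rise, from 900.2, 840.5 and 803 CPM to 1172, 1214 and 1277 CPM (0.58 ± 0.15, adjusted p = 0.00525).

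LHB1B2 and LHB1B1 lie next to each other on chromosome 2, 1038 bases apart, and encode nearly the same LHCB1 protein, yet their profiles differed. LHB1B2 kept 10233, 10770.0 and 9785 CPM at ZT10 in link1link2, against 10604, 9442 and 8959 CPM in the wild type, and the libraries of the genotypes overlapped. LHB1B1 stood at 5957, 6284 and 6801 CPM at ZT6 in the wild type but at 2333, 2692 and 2931 CPM in link1link2, which is 41.8% of the wild-type mean, the lowest share of the 11 antenna members. LHB1B1 was highest at ZT10 in link1link2 (3378, 3588 and 2774 CPM), although the step from ZT6 to ZT10 was not called (log2 change 0.24 ± 0.23, adjusted p = 0.602). The aligned spans of this pair were 91.4% identical over 806 bases, and those of CAB2 and CAB3 93.6% over 1054, so reads that fit either copy could have been split or dropped in counting.

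Regulators numbered 10. PRR7, a clock repressor of CCA1 and LHY, stood at 200.2, 194 and 213 CPM at ZT6 in the wild type, and fell to 7.80, 6.61 and 7.69 CPM at ZT14. In link1link2 it stood at 116, 111 and 111 CPM at ZT6, 117, 120.4 and 122 CPM at ZT10 and 84.7, 80.8 and 78.2 CPM at ZT14. The link1link2 plateau lay below the wild type at ZT6 and above it at ZT14 in every library. Within link1link2, PRR7 rose from ZT2 to ZT6 (log2 change 1.02 ± 0.08, adjusted p = 2.16e-10), showed no called change from ZT6 to ZT10 (0.04 ± 0.08, adjusted p = 0.820) and fell from ZT10 to ZT14 (-0.63 ± 0.08, adjusted p = 6.28e-06).

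PRR9, the earliest of these repressors in the day, had its highest mean at ZT6 in both genotypes. The link1link2 libraries lay below the wild type at ZT2 and ZT6 and above it at ZT10. Its wild-type libraries stood at 46.5, 52.2 and 53.7 CPM at ZT2, 51.6, 54.1 and 55.5 CPM at ZT6 and 1.99, 1.68 and 1.73 CPM at ZT10. In link1link2 they stood at 29.1, 31.2 and 29.6 CPM, then 30.1, 34.9 and 31.5 CPM, then 10.7, 8.56 and 9.93 CPM. The fall from ZT6 to ZT10 in link1link2 was the steepest called among the members (log2 change -1.77 ± 0.13, adjusted p = 1.30e-10). AT2G46670, just under the CPM threshold, is 99.5% identical to PRR9 over 874 bases, so the split of reads between them is uncertain. PIF4, a bHLH factor that promotes elongation growth, stood at 9.87, 9.26 and 8.62 CPM at ZT14 in the wild type and at 63.9, 75.4 and 73.3 CPM in link1link2.

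CIPK20, a kinase of the calcium-sensing CBL-CIPK family, had the largest wild-type ratio of all 40 (189). It stood at 102, 97.2 and 104 CPM at ZT6 in the wild type and at 14.2, 17.3 and 16.5 CPM in link1link2. The link1link2 libraries at ZT2 held 0.940, 0.545 and 1.03 CPM, against 14.6, 21.1 and 15.1 CPM in the wild type. Its rise from ZT2 to ZT6 within link1link2 was the steepest of the 40 members there (log2 change 4.28 ± 0.30, adjusted p = 1.75e-10). Night values were near the limit of detection: the wild-type libraries at ZT18 held 0, 0 and 0.109 CPM, where a count of 0 allows up to 0.319 to 0.338 CPM (3 counts, counting error only).

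MYBL2, a small MYB protein that represses anthocyanin synthesis, lost most of its daytime level. It stood at 64.2, 85.0 and 80.04 CPM at ZT6 in the wild type and at 5.16, 7.42 and 3.98 CPM in link1link2, which is 7.22% of the wild-type mean and the lowest share of the 40. Its highest link1link2 mean was at ZT22 (15.2, 14.1 and 15.4 CPM), where all 3 libraries lay above the wild type (7.12, 7.15 and 7.77 CPM). COL5, a CONSTANS-like B-box protein, and ATCTH, a CCCH zinc-finger protein, were also highest at ZT22 in link1link2. COL5 stood there at 157, 158 and 150.2 CPM against 59.8, 58.9 and 67.3 CPM in the wild type, and ATCTH at 133, 132 and 126 CPM against 74.7, 71.6 and 74.5 CPM.

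EPR1, a MYB-like protein also known as RVE7, and AT3G10113 are 99.7% identical over 1455 bases, so how their reads were assigned is uncertain. EPR1 stood at 51.1, 56.1 and 53.9 CPM at ZT6 in the wild type and at 23.9, 31.1 and 26.5 CPM in link1link2, and both genes were highest at ZT6 in both genotypes. The MIR167d transcript, whose mature product guides cleavage of the auxin response factor transcripts ARF6 and ARF8, stood at 24.5, 23.4 and 26.2 CPM at ZT6 in the wild type and at 6.597, 5.51 and 5.53 CPM in link1link2. The libraries were made from poly(A) RNA, so these values are the precursor, not the mature sequence printed above.

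**Figure D2:**
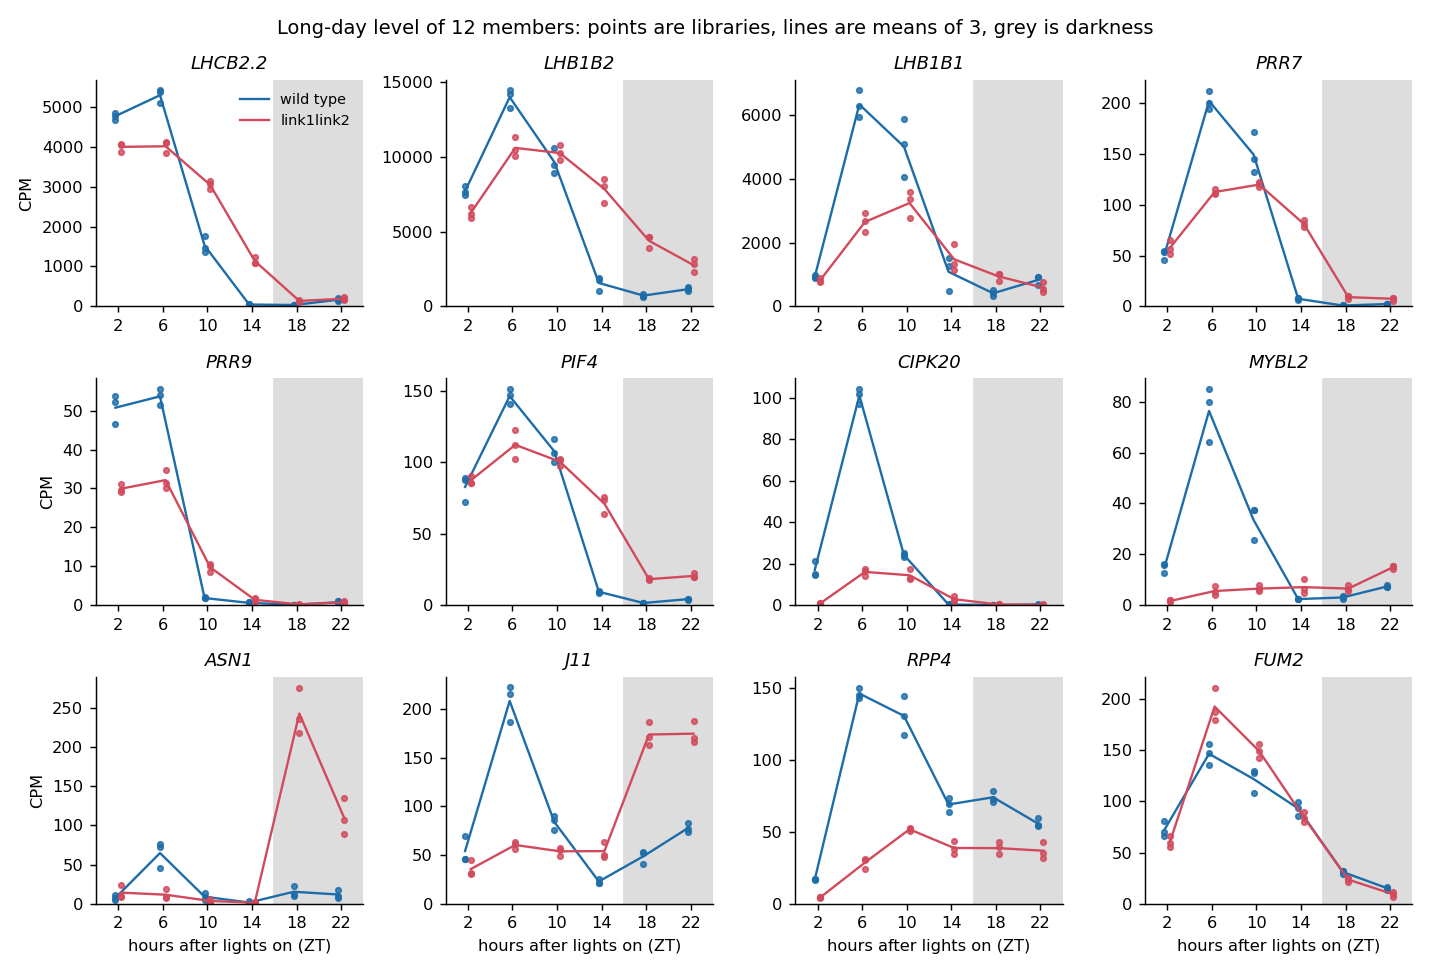
CPM against hours after lights on for 12 members in wild type (blue) and link1link2 (red), with 1 point per library, lines through the means of 3 and darkness in grey. LHCB2.2, LHB1B2, PRR7 and PIF4 stay up at ZT14 in link1link2, MYBL2 and CIPK20 lie below the wild type from ZT2 to ZT10 and above it at ZT14, and ASN1 and J11 are high at night.

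Metabolism and transport gave 6 members. ASN1, a glutamine-dependent asparagine synthetase known as a dark-inducible gene, moved furthest in time. Its wild-type libraries stood at 45.2, 76.1 and 72.9 CPM at ZT6 and at 23.3, 12.9 and 9.99 CPM at ZT18. In link1link2 it stood at 7.44, 19.3 and 8.07 CPM at ZT6 and at 218, 236 and 275 CPM at ZT18. The link1link2 peak was thus in the dark, and its highest mean was 375% of the highest wild-type mean. Within link1link2 the step from ZT14 to ZT18, a comparison added after the values were seen, was a log2 change of 7.44 ± 0.57 (adjusted p = 1.51e-07).

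FUM2, a cytosolic fumarase, was the only member whose link1link2 libraries at ZT6 lay above the wild type: 179.8, 187 and 211 CPM against 147, 136 and 156 CPM. FBA5, a fructose-bisphosphate aldolase, stood at 188, 194 and 207 CPM at ZT6 in link1link2 against 622, 654 and 657 CPM. CYP71B26, a cytochrome P450, stood at 30.1, 25.5 and 22.9 CPM against 101, 109 and 105 CPM. NCED4, a carotenoid cleavage dioxygenase, and PHT4;1, a phosphate transporter of the thylakoid, kept ZT6 as their highest time in link1link2, at 56.7% and 64.4% of the wild-type mean. FBA5 overlaps the annotated span of FBA7 by 109 bases and is 85.7% identical to it over 1017 bases, and FBA7 held 21.3% as many long-day counts as FBA5.

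RPP4, a TIR-NBS-LRR resistance protein against downy mildew, and its neighbours AT4G16870, annotated as a pseudogene, and AT4G16880, a leucine-rich repeat protein, lie on the minus strand of chromosome 4 with 68 and 145 bases between them. RPP4 was marked by a low morning value in the wild type (16.2, 17.53 and 17.3 CPM at ZT2) and stood at 143, 145 and 150.3 CPM at ZT6 and 59.4, 54.6 and 53.8 CPM at ZT22. In link1link2 it stood at 4.89, 4.47 and 4.11 CPM at ZT2, 30.7, 31.3 and 24.1 CPM at ZT6 and 52.2, 52.8 and 50.5 CPM at ZT10. RPP4 and AT4G16870 were the only members called higher at ZT10 than at ZT6 in link1link2 (log2 change 0.81 ± 0.10, adjusted p = 3.94e-06, and 0.88 ± 0.07, adjusted p = 1.47e-09). All 3 loci lay below the wild type in every library at all 6 times, as did FBA5 and AT5G59130. The wild-type libraries in this comparison chose the members. It has no share over all genes beside it and is given without a reading.

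The other 10 members had mixed roles. J11, a small DnaJ chaperone of the chloroplast, stood at 187, 215 and 222 CPM at ZT6 in the wild type and at 56.6, 63.1 and 61.2 CPM in link1link2, but at ZT18 at 51.8, 53.2 and 41.3 against 171, 186 and 163 CPM. AT3G55240, whose overexpression gives a pseudo-etiolated form in light, had no count in any of the 6 wild-type libraries at ZT18 and ZT22, where a count of 0 allows up to 0.281 to 0.363 CPM, and 0.832 to 1.69 CPM in link1link2. AT1G73480, an alpha/beta hydrolase, was highest at ZT2 in link1link2, with 58.6, 54.4 and 69.4 CPM there and 40.2, 37.4 and 36.03 CPM at ZT6. In the wild type the libraries of these times overlapped, at 67.9, 90.9 and 76.7 CPM at ZT2 and 88.2, 95.6 and 93.9 CPM at ZT6. AT5G18030, of the SAUR family of small auxin-induced genes, stood at 9.68, 15.3 and 10.5 CPM at ZT2 and at 6.12, 7.87 and 10.1 CPM at ZT6 in link1link2, which overlap.

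RAB18, a dehydrin induced by abscisic acid and drought, varied widely between libraries of a group, with 20.8, 31.4 and 97.9 CPM in link1link2 at ZT2, and PLP3b, whose annotated span overlaps it by 11 bases, held 75.8% as many long-day counts. EXPA8, an expansin that loosens cell walls, was highest at ZT10 in link1link2 (103, 106 and 93.6 CPM) and at ZT6 in the wild type (175, 193 and 184 CPM). Its link1link2 libraries at ZT6 (75.2, 90.9 and 112.6 CPM) overlapped those at ZT10, and no change between these times was called. AT5G35970, a P-loop NTPase, AT2G23840, an HNH endonuclease, and AT5G54585, of unknown role, kept ZT6 as the highest time in link1link2, at 64.03%, 34.2% and 33.5% of the wild-type ZT6 mean. The subtilase AT5G59130 was highest at ZT10 there, at 34.7, 35.2 and 37.7 CPM, with 33.8, 33.5 and 34.4 CPM at ZT6.

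Did the members still cycle, and at the same time, in link1link2? The 18 link1link2 libraries took no part in the choice and were fitted alone. All 40 members differed between times (edgeR quasi-likelihood F test, adjusted p under 0.05), as did 82.5% of the 20211 genes tested, so this count sets the members little apart. The highest link1link2 mean was at ZT6 for 21 members, at ZT10 for 9, at ZT22 for 5, at ZT2 for 4 and at ZT18 for 1. A different time of the highest mean was not tested as a shift. Of the 9 at ZT10, only RPP4 was called higher there than at ZT6. For FBA5, RPP4 and AT5G59130 the ZT6 and ZT10 libraries already overlapped in the wild type. LHCB2.1, highest at ZT2, showed no called change from ZT2 to ZT6. Of the 101 wild-type cyclers highest at ZT2, 95 were highest at ZT2 in link1link2, and of the 81 highest at ZT10, 16 remained at ZT10 while 35 were highest at ZT14, 14 at ZT22, 9 at ZT18 and 6 at ZT2. With library sizes scaled by the trimmed mean of M-values (TMM) in place of totals, the 40 members were highest at ZT6 for 23, at ZT10 for 8 and at ZT2, ZT18 and ZT22 for 3 each.

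**Figure D3:**
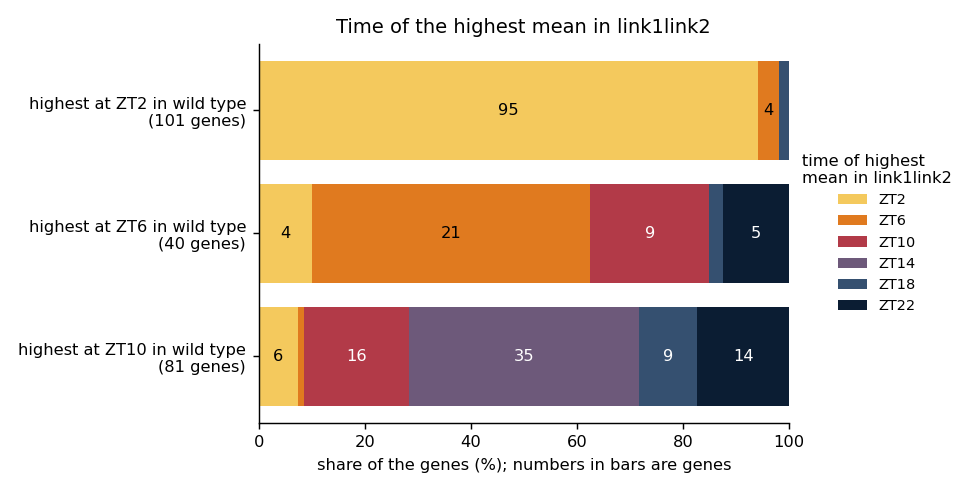
Share of genes (percent, horizontal) by the time of their highest mean in link1link2, for wild-type cyclers highest at ZT2, ZT6 and ZT10, with the number of genes in the bars. Of the 40 members 21 stay at ZT6 and 9 are at ZT10, whereas 95 of 101 genes of the ZT2 set stay at ZT2 and 35 of 81 of the ZT10 set are at ZT14.

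The morning rise was kept by most members. From ZT2 to ZT6 in link1link2, 29 of 40 were called higher (72.5%, against 21.4% of all genes tested) and 2 lower (5%, against 21.1%), with a median log2 change of 0.70 over the members and 0.01 over all genes. The 2 lower were AT1G73480 (-0.64 ± 0.11, adjusted p = 4.30e-05) and AT5G18030, whose call was close to the threshold (-0.49 ± 0.19, adjusted p = 0.0443) and was lost without link1link2 ZT2 replicate B or C, ZT6 replicate A or B, ZT18 replicate A or C or ZT22 replicate C (adjusted p from 0.0501 to 0.258). In the ZT2 set 78 of 101 were called lower over this step, and in the ZT10 set 50 of 81 were called higher.

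From ZT6 to ZT10 in link1link2, 20 of the 40 members fell (50%, against 5.59% of all genes) and 2 rose (5%, against 5.53%), with a median log2 change of -0.30. The members that fell were 7 of the 11 antenna genes, 5 regulators (PRR9, EPR1, AT3G10113, ATCTH and COL5), NCED4, FUM2, PHT4;1 and 5 of mixed roles. PRR7, PIF4, CIPK20, CAB2, CAB3, LHB1B1 and LHB1B2 were among the 18 with no call. In the ZT2 set 92 of 101 fell and none rose, and in the ZT10 set 69 of 81 rose and none fell. Several of the antenna changes were small (LHCA1 -0.27 ± 0.07, LHCA4 -0.27 ± 0.08), and without link1link2 ZT6 replicate B the number of members that fell was 13.

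**Figure D4:**
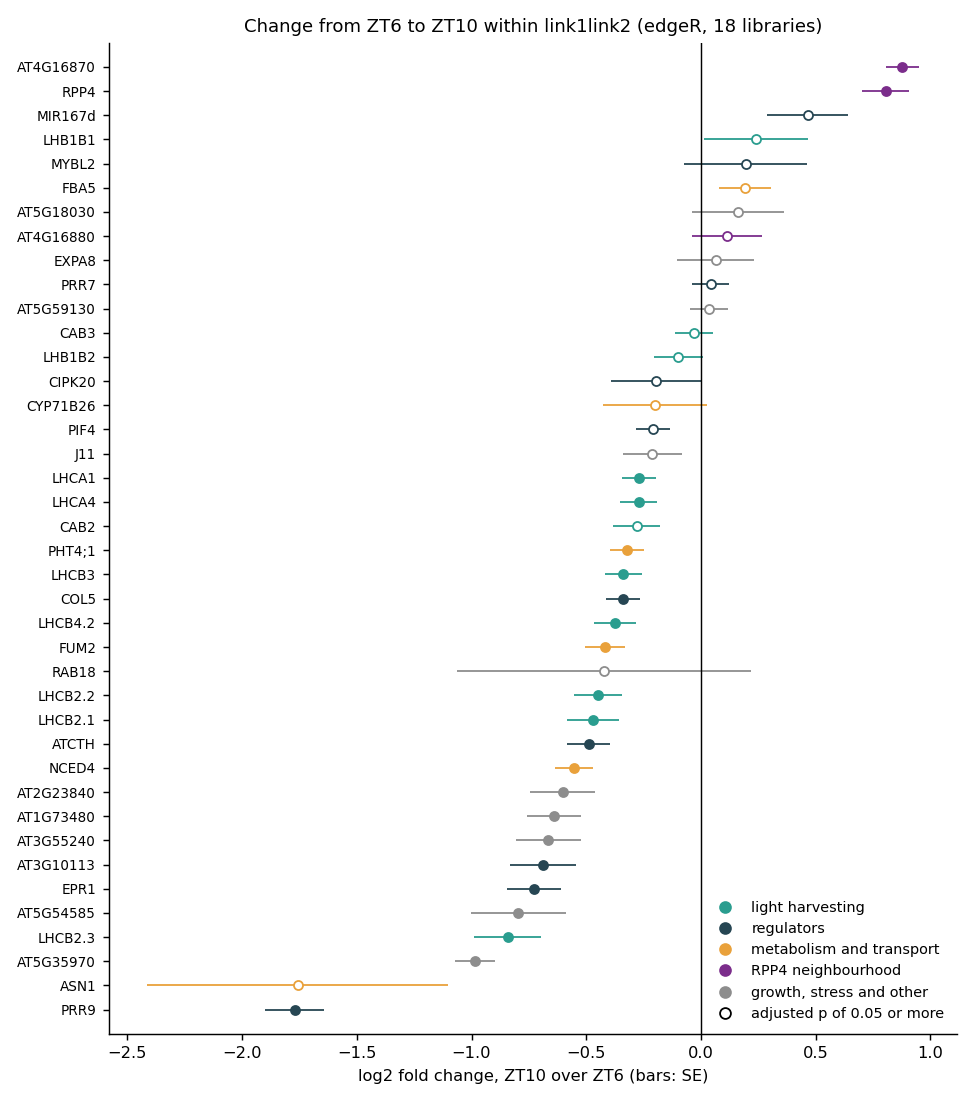
Log2 fold change from ZT6 to ZT10 within link1link2 for the 40 members, with SE bars, filled where the adjusted p was under 0.05 and coloured by role. The 20 filled points left of 0 run from -0.27 for LHCA1 to -1.77 for PRR9, and the 2 filled points right of 0 are RPP4 and AT4G16870.

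From ZT10 to ZT14, the last step in light, 29 of 40 members fell (72.5%, against 11.9% of all genes) and none rose (against 10.5%), with a median log2 change of -0.62. No member rose at an unadjusted p under 0.05 with edgeR, and DESeq2 also called none higher. All 11 antenna members fell, from -0.45 ± 0.11 for LHB1B2 to -1.73 ± 0.15 for LHCB2.3. Over the step into darkness, from ZT14 to ZT18, 34 members fell (85%, against 23.8%) and 4 rose (10%, against 23.9%): ASN1, ATCTH (1.81 ± 0.09), J11 (1.63 ± 0.12) and AT4G16870 (0.22 ± 0.07). This last step was added after the values were seen.

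Between the genotypes in long days the members' counts are given without a reading, because the wild-type libraries in these contrasts chose the members. At ZT2, 1 member was called higher in link1link2 and 29 lower (8.53% and 7.58% of 20518 genes tested), and at ZT6, 1 higher and 36 lower (10.1% and 9.98%). At ZT10 the counts were 13 and 13 (11.4% and 10.7%). At ZT14 they were 27 higher and 5 lower (7.72% and 6.98%), at ZT18, 25 and 7 (10.6% and 9.59%), and at ZT22, 17 and 9 (16.6% and 14.1%). The libraries of the genotypes lay apart in opposite directions at 2 or more times for 30 members (32.8% of all genes tested). The higher member at ZT2 was AT3G55240, and none was called higher there without link1link2 ZT2 replicate C. The number lower at ZT14 was 3 without wild type ZT14 replicate A.

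The continuous-light libraries took no part in the choice either. Over all 40 members, the wild-type mean in continuous light stood at a median of 28.9% of the wild-type long-day ZT6 mean. It lay between the lowest and highest wild-type long-day means for 39 members. ASN1 was below that range, at 0.262, 0.439 and 0.175 CPM in the wild type and 0.939, 1.51 and 0.698 CPM in link1link2, and it did not pass the filter on low counts, so 39 members were tested. Of these 13 were higher in link1link2 (33.3%, against 2.18% of 20158 genes tested) and 13 lower (33.3%, against 2.98%), and the median log2 difference was near 0 for the members and for all genes (-0.00 and 0.00). In the ZT2 set 11 of 101 were higher and 11 lower, and in the ZT10 set 9 of 81 were higher and 26 lower.

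Within each role the called members went in the same direction, except among the regulators. Of the antenna members 8 of 11 were higher in link1link2 and none lower. LHB1B2 stood at 4060.0, 4490.2 and 4516 CPM in the wild type and at 7970.3, 8790.3 and 7874 CPM in link1link2 (log2 difference 0.95 ± 0.07, adjusted p = 9.42e-09), and CAB2 at 3531, 4026 and 4110.4 against 6452, 6492 and 6646 CPM (0.78 ± 0.07, adjusted p = 1.21e-07). The groups did not overlap for either gene. LHCB2.1 (0.20 ± 0.07, adjusted p = 0.0924), LHCB2.3 (0.04 ± 0.09, adjusted p = 0.886) and LHCB4.2 (-0.00 ± 0.06, adjusted p = 0.986) were not called. Of the 14 other genes of the light-harvesting list, CAB1, also called LHCB1.3, was higher (0.42 ± 0.06), LHCB4.3 was lower (-0.95 ± 0.13) and 12 were not called.

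The regulators were divided. PRR7 was higher, at 28.2, 29.0 and 30.2 CPM in the wild type and 57.3, 50.9 and 53.8 CPM in link1link2 (0.92 ± 0.07, adjusted p = 1.21e-08). PIF4 stood at 26.2, 31.1 and 30.1 against 51.6, 49.05 and 48.7 CPM (0.80 ± 0.07, adjusted p = 1.86e-07) and COL5 at 43.1, 47.3 and 39.1 against 69.3, 64.8 and 66.1 CPM (0.66 ± 0.07, adjusted p = 1.25e-06). MYBL2 was lower, at 13.1, 12.4 and 11.3 CPM against 1.41, 2.27 and 3.26 CPM (-2.40 ± 0.18, adjusted p = 1.41e-07), the largest difference of the 39. CIPK20 stood at 21.0, 24.5 and 26.9 against 6.10, 6.06 and 7.76 CPM (-1.84 ± 0.12, adjusted p = 9.42e-09). PRR9 was not called (-0.46 ± 0.17, adjusted p = 0.148), although it was called lower without wild-type replicate A (adjusted p = 0.0338) or link1link2 replicate C (0.0441). Among the 24 other core clock genes tested, 4 were higher and 14 lower, with GI (1.096 ± 0.07) and LHY (-0.99 ± 0.08) as examples in each direction.

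The calls of EPR1 (0.35 ± 0.09, adjusted p = 0.0294), its near copy AT3G10113 (0.46 ± 0.13, adjusted p = 0.0372), MIR167d (-0.90 ± 0.23, adjusted p = 0.0339) and FBA5 (-0.22 ± 0.06, adjusted p = 0.0427) were close to the threshold. Leaving out any 1 of the 6 libraries ended the first pair of calls (adjusted p from 0.0514 to 0.147). The call of MIR167d ended without wild-type replicate A or B or link1link2 replicate A or C (0.112 to 0.195), and that of FBA5 without wild-type replicate A or C or link1link2 replicate C (0.145 to 0.183). Conversely AT4G16870 (-0.37 ± 0.12, adjusted p = 0.134) was called lower without wild-type replicate C (0.00143), and ATCTH (0.14 ± 0.17, adjusted p = 0.769) was called higher without link1link2 replicate C (0.0326). ASN1 passed the filter on low counts in 4 of the 6 fits with 1 library left out, and was called higher without wild-type replicate B (0.0488) or link1link2 replicate C (0.0184).

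In metabolism and transport, NCED4 (-0.41 ± 0.06), CYP71B26 (-1.15 ± 0.09), FUM2 (-0.61 ± 0.07) and FBA5 were lower and PHT4;1 was not called. FUM2, which was above the wild type at long-day ZT6, stood in continuous light at 96.1, 105 and 106 CPM in the wild type and at 61.2, 65.5 and 70.1 CPM in link1link2. RPP4 stood at 73.2, 57.6 and 54.4 against 36.5, 35.5 and 29.7 CPM (-0.83 ± 0.11, adjusted p = 0.00163) and AT4G16880 at 13.01, 13.7 and 15.5 against 6.44, 5.83 and 6.05 CPM (-1.17 ± 0.11, adjusted p = 8.79e-07). AT1G73480, AT5G35970, AT2G23840 and AT5G59130 were lower (from -0.39 ± 0.06 to -0.87 ± 0.10), and the remaining 6 members of mixed roles were not called. RAB18 stood at 5.63, 33.4 and 6.21 CPM in link1link2, with 1 library far above the other pair, and was not called (0.84 ± 0.94, adjusted p = 0.764).

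**Figure D5:**
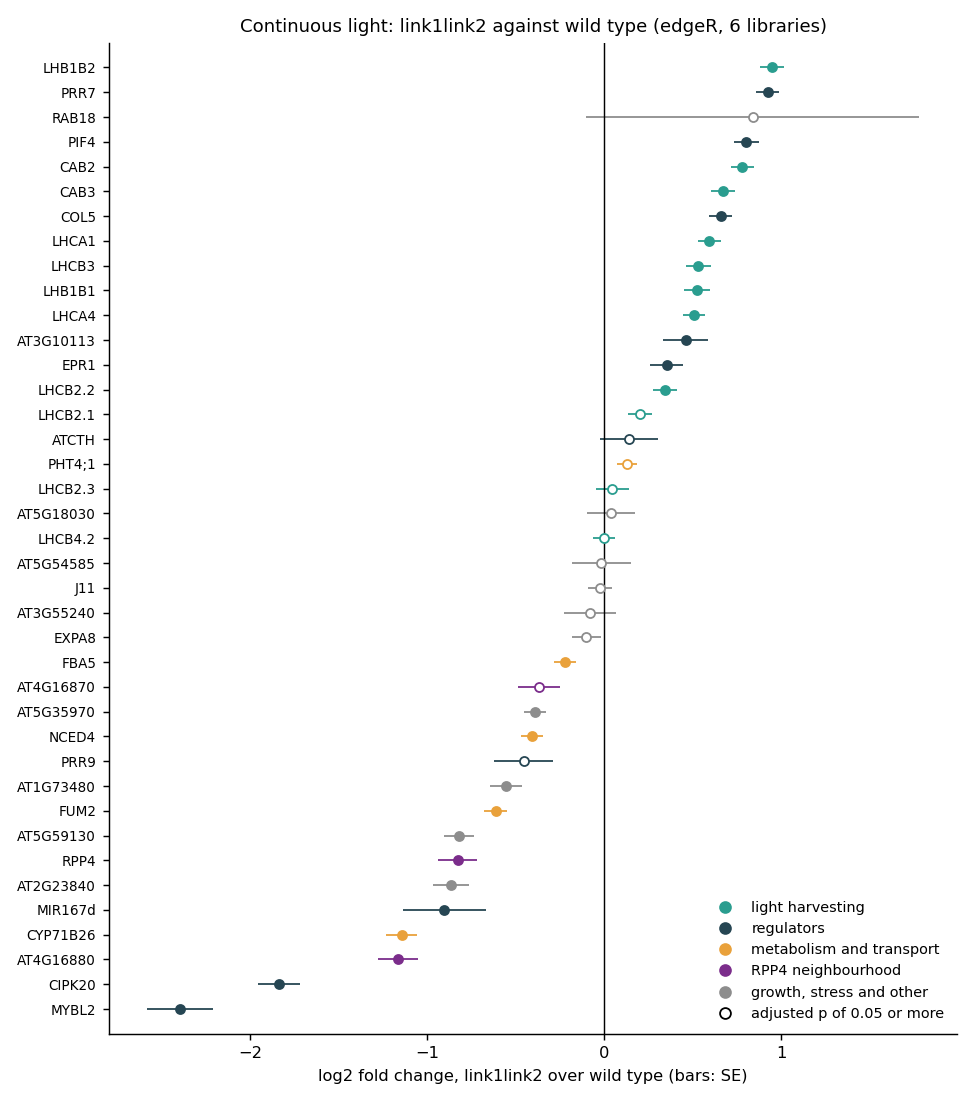
Log2 fold change of link1link2 over wild type in continuous light for the 39 members tested, with SE bars, filled where the adjusted p was under 0.05 and coloured by role. The filled antenna genes all lie right of 0, up to 0.95 for LHB1B2, and CIPK20 and MYBL2 lie farthest left at -1.84 and -2.40.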

How the data were processed

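RNA from whole seedlings was poly(A)-selected and sequenced after TruSeq library preparation, per the labels' protocols. The tables the authors deposited hold unnormalized counts of reads for each locus, with 1 column per library and TAIR10 as the build per the submitters' processing notes. The aligner, counting tool, strand setting and handling of reads that fit several loci are not given in the sources used here. Columns named for Col were taken as wild type, and the remaining columns as link1link2, the only other genotype in the labels. The members and gene lists were chosen with earlier results of these data known.

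Levels are CPM, the count scaled to a common column total. Tests used edgeR 4.0.16 (quasi-likelihood, robust, TMM scaling, filterByExpr, R 4.3.3, limma 3.58.1) with Benjamini-Hochberg adjustment over all genes tested and a threshold of 0.05. Changes are log2 fold changes ± SE. Continuous light (6 libraries), link1link2 in long days (18) and all long-day libraries (36, 12 groups) were fitted separately. The code was tested on simulated data. Alternatives were RLE size factors, no filter on low counts, DESeq2 1.42.0, each library left out in turn, a replicate block, leaving out libraries over 2% chloroplast counts, 1 fit of all 36 libraries for the link1link2 steps, other thresholds of the member rule and TMM-scaled CPM.

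Column letters are not known to pair the libraries, and the main fits used no block. Between genotypes, deviations from the group means of libraries with the same letter correlated at 0.0508 to 0.133 in continuous light. In long days they correlated at -0.32 to 0.117. With 3 libraries in a group, these correlations cannot exclude pairing. No library was a copy of another of its group, since chi-square per degree of freedom between replicates was 1.95 to 23.9. Copies between groups were not looked for. Genes were named where they are members on a gene list, among the 12 largest wild-type ratios or 12 highest ZT6 levels, among the 8 largest calls in each direction in continuous light, among the 8 smallest and 8 largest ranges in link1link2 relative to wild type, among the 6 highest of each shifted time, or among 4 on each side of a threshold. Members outside it were named after their values were seen, so that every member is accounted for. Upstream windows were read from RefSeq TAIR10.1 by locus tag, and all 40 members matched.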

Additional observations from a re-analysis of the deposited data

Results flagged for a closer look

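For 30 of the 40 members (75%) the libraries of the 2 genotypes lay apart in opposite directions at 2 or more long-day times, against 32.8% of the 20518 genes tested, 80.2% of the cyclers highest at ZT2 and 81.5% of those highest at ZT10. In LHCB2.2 and PRR7, for example, link1link2 was lower at ZT6 and higher at ZT14. This difference between times was not tested, and the wild-type libraries in it chose the members.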

How the results depend on the processing

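In continuous light and over the link1link2 steps from ZT2 to ZT14, no called change of a single member reversed under any alternative run. The long-day contrasts between genotypes and the ZT14 to ZT18 step were compared as numbers of called members. Such numbers cannot show whether a member reversed. Of 3270 values of single members under alternatives, 3178 kept their side of the threshold, 74 lost their call and 18 gained one. Of these 92 changes, 72 came on leaving out 1 library. Direction was compared only where a value was called. From ZT2 to ZT6 in link1link2 the number of members called lower was 1 with DESeq2 and 1 without libraries over 2% chloroplast counts, and 1 to 2 with 1 library left out. From ZT6 to ZT10 the number called lower was 13 to 21 with 1 library left out. At long-day ZT2 the number higher in link1link2 was 0 without libraries over 2% chloroplast counts and 0 to 1 with 1 library left out, and at ZT14 the number lower was 3 to 5. With TMM-scaled CPM, 3 members were highest at ZT18 and 3 at ZT22 in link1link2. The cause was not tested. In continuous light the numbers were 11 to 13 higher and 12 to 13 lower with 1 library left out, where ASN1 also passed the filter in some fits, and 11 higher and 13 lower with DESeq2, which did not call EPR1 (adjusted p = 0.203), AT3G10113 (0.238) or FBA5 (0.0769) and called AT4G16870 lower (0.0309). With a replicate block by column letter they were 14 higher and 15 lower, the numbers in the long-day steps were the same, and the letters are not known to pair libraries. The member rule gave 50 genes with a ratio of at least 6, 32 with at least 12, 51 with at least 10 CPM, 33 with at least 40 CPM and 50 with TMM-scaled CPM. Depth limits the night values of CIPK20, PRR9 and AT3G55240, which rest on few or no counts in the wild type.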

Other observations

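The daily range was wider in link1link2 than in the wild type for 5 of the 40 members, as the ratio of highest to lowest mean with 0.5 added to each. ASN1 had a ratio of 128 in link1link2 and 31.4 in the wild type, AT5G59130 27.5 and 9.75, FUM2 19.5 and 9.37, AT4G16870 14.4 and 9.48, and RPP4 10.5 and 8.39. Except for ASN1, these members lay near the wild-type ratio of 8 that the rule required. The wild-type ratio chose the members, so this count was not tested and is given without a reading. The narrowest link1link2 ratios were those of AT5G18030 (2.59), LHCB4.2 (2.70), COL5 (2.89), AT3G10113 (2.92) and EPR1 (3.07). AT5G59130 was low at ZT22 in link1link2, at 0.607, 1.17 and 0.694 CPM, where the wild type held 4.87, 4.00 and 6.12 CPM.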
